A study of Mus musculus with 8 samples.

Results

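The natural killer gene complex is a cluster of lectin-like receptor genes on mouse chromosome 6. It was taken here as the stretch from 128400 to 131400 kb of that chromosome on the mm9 build, and its members are the protected DNA positions whose summit lies there. They were chosen by coordinate alone, but the stretch was picked with earlier results of these data in view. Its position numbers, summit heights, fuzziness and genotype ratios are therefore descriptions and were not tested. Positions in the complex numbered 4794 of 5306949 in wild-type (WT) spermatocytes and 4579 of 4853610 in spermatocytes lacking H2A.L.2. Round spermatids had 4985 of 5385833 in WT and 5576 of 4747226 without H2A.L.2. Condensing spermatids had 4074 of 3779744 and 4214 of 3885201 nucleosome positions, and 3648 of 5371290 and 2563 of 4114547 small structures, WT first in each case. These totals are for chromosomes 1 to 19 and X. For the descriptions that follow, the complex was divided into 30 parts of 100 kb, each named by its start in Mb.

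Testis chromatin was digested with micrococcal nuclease (MNase), which cuts DNA that protein does not cover, and the protected fragments were sequenced. The 3 cell fractions were enriched for spermatocytes (meiotic cells), round spermatids (early haploid cells) and condensing spermatids, whose histones give way to transition proteins and protamines. Each came from WT mice and from mice without H2A.L.2, a testis-specific variant of histone H2A. In condensing spermatids, fragments of about 130 to 170 bp (nucleosomes) and about 40 to 80 bp (small structures) were separated, giving 8 libraries with 1 in each group. No difference below has a replicate check, and no p-value is given. The fractions were enriched and not pure, and protected DNA carries no marker expression by which they could be checked. The allele, strain and age of the mice and the read number of single libraries are not given in the sources used here.

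Receptors of the natural killer gene complex let natural killer cells and some T cells read ligands on other cells. The Klra genes encode the Ly49 receptors, many of which bind class I molecules of the major histocompatibility complex. Klrd1 (CD94) pairs with NKG2 receptors of the Klrc genes, Klrk1 encodes the activating receptor NKG2D, and several Klrb1 (NKR-P1) receptors bind Clec2 proteins encoded among them. The cluster arose by repeated duplication, and the number of Klra genes differs between inbred mouse strains. Expression of these genes is best known from lymphoid and myeloid cells.

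The gene table at hand was RefSeq for GRCm38.p6, a build other than that of the positions, so the name of the stretch rests on its stated coordinates and no gene was placed on a part. Of 69 listed symbols, 68 were found in that table. Read along the chromosome there, Klrb1 and Clec2 genes come first, from Klrb1a to Clec2d. Cd69 and the myeloid lectin genes Clec12a, Clec9a, Clec7a (Dectin-1) and Olr1 follow. Next are Klre1, Klrd1, Klrk1, Klrc3, Klrc2, Klrc1, Klri1, Klri2 and Klrh1. Last is the Klra run from Klra17 to Klra1, and then Klra2 at a distance. From Klrb1a to Klra2 there were 92 entries, of which 48 were protein coding and 21 were pseudogenes. Between Klra1 and Klra2 lay 15 entries, and 10 of these were pseudogenes.

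Some promoters of the complex are close copies of one another, which bears on where short fragments can be placed. The 250 bases before the start were read from RefSeq (GRCm38.p6) and searched for exact runs found in another gene's promoter. A run of 40 bases was shared by 5 of 13 Klra promoter windows (38.5%), against 8.42% of all 32851 promoters. For 4 of these, those of Klra3, Klra5, Klra6 and Klra9, the run lay in another Klra promoter, and for Klra10 it lay only outside the Klra genes. Of the 4 windows for CD94/NKG2 genes, 3 shared such a run, both windows of Klrc2 and that of Klrc3. The counts were 3 of 8 for Clec2 and 2 of 6 for Klrb1 genes. They were 0 of 5 for other Klr receptors, 0 of 7 for myeloid lectins and 0 of 19 for other listed genes. Of those other genes, only Tmem52b and Gabarapl1 lie between Klrb1a and Klra2 in the gene table. Clec2l, counted with the Clec2 genes, does not lie there either. At 80 bases the counts were 3 of 4 for CD94/NKG2, 2 of 8 for Clec2 and 0 in each other group, against 4.98% of all promoters. At 130 bases, near the length of a nucleosome fragment, no window of any listed group shared a run, against 3.36% of all. Copies outside the promoter windows, or with a mismatch inside the run, were not searched for. Whether nucleosome fragments can be placed uniquely in the complex was therefore not tested. The closest pairs within the Klra and Klrc genes are printed below, 5′ to 3′ on the minus strand. Capitals mark the run that each shares with its partner: Klrc3 with Klrc2, Klra9 with Klra3, and Klra5 with Klra6.
Klrc3: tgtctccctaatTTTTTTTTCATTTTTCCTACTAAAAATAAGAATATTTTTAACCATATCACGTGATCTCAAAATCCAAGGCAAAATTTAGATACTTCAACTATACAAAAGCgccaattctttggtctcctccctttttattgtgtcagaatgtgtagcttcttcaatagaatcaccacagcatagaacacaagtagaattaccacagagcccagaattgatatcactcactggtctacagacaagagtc
Klrc2: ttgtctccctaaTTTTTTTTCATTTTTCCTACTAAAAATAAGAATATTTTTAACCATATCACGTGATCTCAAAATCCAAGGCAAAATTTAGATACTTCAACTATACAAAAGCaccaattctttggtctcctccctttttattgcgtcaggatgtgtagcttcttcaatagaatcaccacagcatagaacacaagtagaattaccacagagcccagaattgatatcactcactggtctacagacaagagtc
Klra9: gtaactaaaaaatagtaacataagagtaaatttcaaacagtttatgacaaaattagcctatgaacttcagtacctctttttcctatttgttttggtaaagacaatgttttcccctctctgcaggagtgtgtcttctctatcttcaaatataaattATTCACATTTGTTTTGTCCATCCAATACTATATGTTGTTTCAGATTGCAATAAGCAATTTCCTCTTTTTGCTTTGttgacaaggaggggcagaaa
Klra3: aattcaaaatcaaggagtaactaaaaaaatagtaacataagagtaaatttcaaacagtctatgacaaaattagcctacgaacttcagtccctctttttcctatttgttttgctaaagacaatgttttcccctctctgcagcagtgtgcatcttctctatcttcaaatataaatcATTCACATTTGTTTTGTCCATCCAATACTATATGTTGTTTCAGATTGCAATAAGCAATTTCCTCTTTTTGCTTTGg
Klra5: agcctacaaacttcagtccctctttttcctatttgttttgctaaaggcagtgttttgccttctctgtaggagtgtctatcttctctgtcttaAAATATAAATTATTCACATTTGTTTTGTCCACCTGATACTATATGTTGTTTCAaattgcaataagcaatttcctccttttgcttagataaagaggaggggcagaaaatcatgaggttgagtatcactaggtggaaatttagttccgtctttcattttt
Klra6: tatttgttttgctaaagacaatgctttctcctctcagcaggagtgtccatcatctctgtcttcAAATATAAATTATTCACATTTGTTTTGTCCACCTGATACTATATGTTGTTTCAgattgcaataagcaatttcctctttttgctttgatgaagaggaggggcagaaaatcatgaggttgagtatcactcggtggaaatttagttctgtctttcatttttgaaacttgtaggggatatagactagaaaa
The Klrc3 window (chr6:129643289-129643538, GRCm38.p6) and the Klrc2 window (chr6:129660557-129660806) share a run of 100 bases and match at 239 of 250 bases. Klra9 (chr6:130193113-130193362) and Klra3 (chr6:130337627-130337876) share 75 bases. Klra5 (chr6:129913225-129913474) and Klra6 (chr6:130026955-130027204) share 53 bases. These coordinates cannot be read against the mm9 parts. Whether shared sequence moved fragments between copies was not tested, and no filter on multiply placed reads was given in the sources used here.

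Density in the complex was below that of the rest of chromosome 6 in all 8 lists, by different amounts. WT spermatocytes had 1598 positions per Mb, 0.767 of the rest of the chromosome, and H2A.L.2-less spermatocytes had 1526, or 0.783. In round spermatids the ratio was 0.776 in WT (1662 per Mb) and 0.951 without H2A.L.2 (1859 per Mb). Condensing nucleosomes stood at 0.921 in WT (1358 per Mb) and 0.929 without H2A.L.2 (1405 per Mb). Small structures were the sparsest relative to the chromosome, at 0.602 in WT (1216 per Mb) and 0.560 without H2A.L.2 (854 per Mb). Low density was common on chromosome 6: among 48 windows of 3 Mb including the complex, it ranked between 13 and 20 from the lowest in the 8 lists. The SD of the ratio over the other 47 windows was 0.279 in WT spermatocytes and 0.506 in WT small structures, so the complex lay within 1 SD of the chromosome in these lists.

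The complex lay between a dense and a sparse neighbour. The 3 Mb before it held 9293 WT spermatocyte positions and 11519 WT small structures, and the 3 Mb after it held 4515 and 3671. At its start, the 100 kb just outside held 268 WT spermatocyte positions and the 100 kb just inside held 230. At its end, the last 100 kb inside held 208 and the next outside held 158. The WT small structures at the same 4 places numbered 463, 282, 199 and 112.

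The 30 parts differed more among themselves than the complex did from the chromosome. In WT spermatocytes the most positions were at 128.6 Mb (231), in the first part (230) and at 128.7 Mb (230), and the fewest at 130.2 Mb (64), 130.4 Mb (80) and 130.3 Mb (85). The median part held 168.5, against 200 in the median 100 kb window of the rest of chromosome 6. The part at 130.2 Mb held 70 positions in H2A.L.2-less spermatocytes, 80 and 110 in WT and H2A.L.2-less round spermatids, and 63 and 74 in condensing nucleosomes. Its small structures numbered 30 in WT and 29 without H2A.L.2. The sparse stretch was thus seen in every library, and no part had under 50 positions in all 8 lists.

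Condensing nucleosomes were most frequent near the end of the complex. At 130.8 Mb, WT condensing nucleosomes reached 298, their highest part, where WT spermatocytes had 195 and WT round spermatids 209. At 130.7 Mb, H2A.L.2-less condensing nucleosomes reached 314, their highest, where H2A.L.2-less spermatocytes had 171 and round spermatids 246. H2A.L.2-less round spermatids also had their highest part there, at 130.8 Mb (271), whereas both spermatocyte lists and WT round spermatids had theirs near the start of the complex. WT small structures were lowest at 130.1 Mb (27) and highest at 128.7 Mb (289), and the H2A.L.2-less list had its lowest (17) and highest (203) at the same parts. At 129.8 Mb a single part stood above its neighbours in all 8 lists, with 206 positions in WT spermatocytes (98 at 129.7 Mb and 114 at 129.9 Mb). The plot of positions by part shows the start of the complex rich in small structures, and condensing nucleosomes peaking towards its end.

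**Figure D1:**
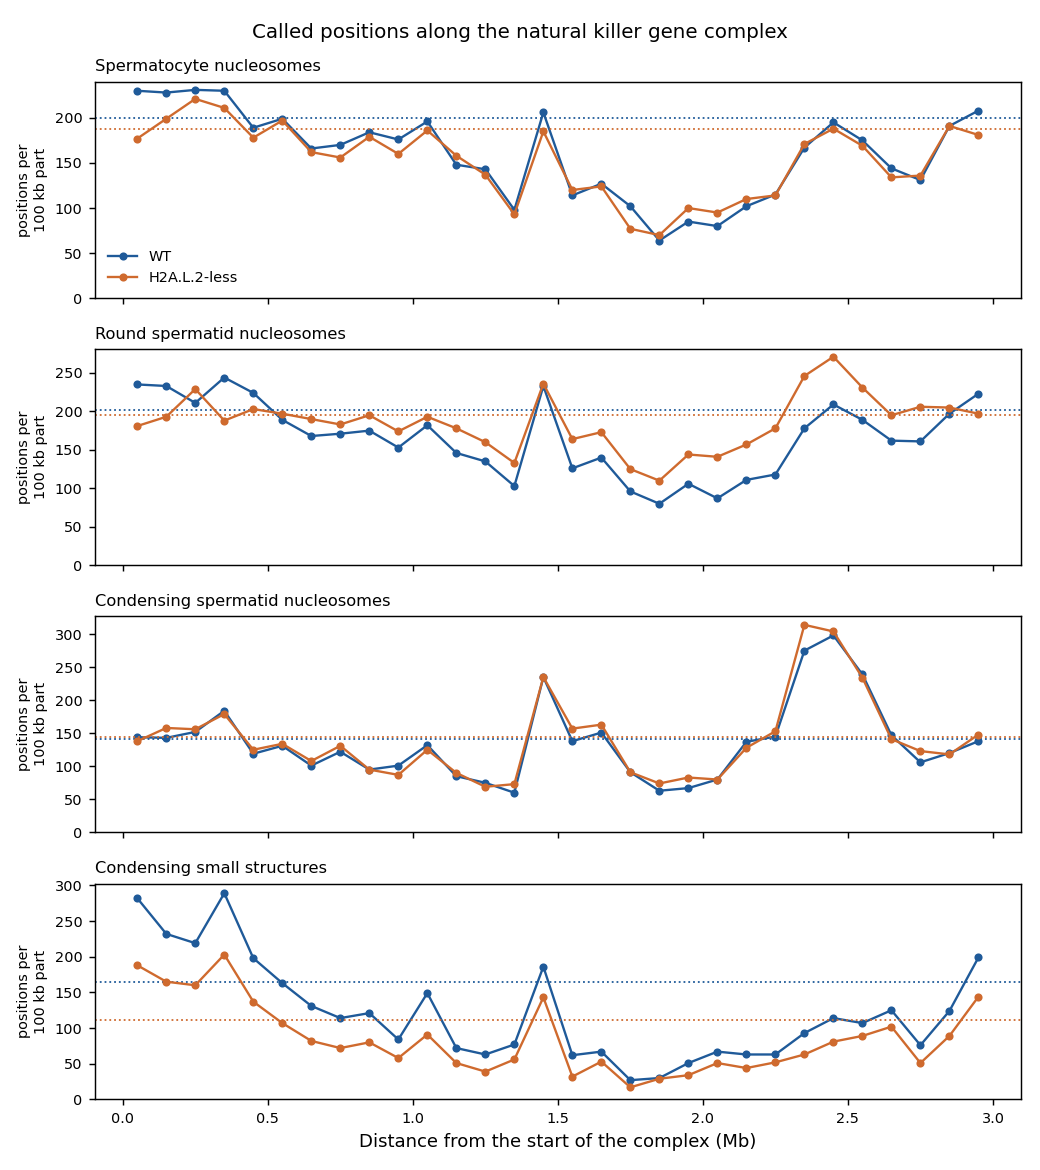
Positions per 100 kb part (vertical axis) against distance from the start of the complex in Mb, for each stage and fragment class, WT and H2A.L.2-less as separate lines. Dotted lines give the median 100 kb window of the rest of chromosome 6 in each list. Condensing nucleosomes rise to 298 (WT) and 314 (H2A.L.2-less) near the end of the complex, where small structures stay low.

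Stretches delimited after the values were seen describe this. In the first 14 parts (up to 129.8 Mb) the density of the nucleosome lists was 0.788 to 0.949 of the rest of the chromosome, and that of small structures 0.776 and 0.697. In the 12 parts from 129.8 to 131.0 Mb, spermatocytes stood at 0.613 (WT) and 0.651 (H2A.L.2-less) and WT round spermatids at 0.651. In the same stretch H2A.L.2-less round spermatids stood at 0.928, condensing nucleosomes at 1.08 and 1.11, and small structures at 0.384 and 0.376. Within it, the 5 parts from 130.5 to 131.0 Mb held condensing nucleosomes at 1.5 times the chromosome's density in both genotypes, and small structures at 0.436 and 0.431 times. The last 4 parts ranged from 0.633 to 1.03 over the 8 lists.

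Changes in position number between stages were measured as a log2 ratio, using position numbers plus 0.5, relative to the median ratio over chromosome 6. For the whole complex the reference was the rest of the chromosome. Among the nucleosome lists, a fragment range (130 to 170 bp) is stated only for condensing spermatids. In ratios of condensing nucleosomes to earlier stages, stage therefore cannot be told apart from fragment selection. From round spermatids to condensing nucleosomes in WT, the complex as a whole stood 0.25 above the rest, the highest of the 48 windows of 3 Mb (SD of the other windows 0.133). In WT, 7 of 30 parts were more than 1.5-fold higher, against 0.349% of windows on the rest of the chromosome. The 5 highest of all 1464 windows on chromosome 6 were the consecutive parts from 130.5 to 131.0 Mb, with ratios of 0.84, 0.84, 1.17, 1.05 and 0.88. At 130.7 Mb the numbers were 275 against 178. In WT, 0 parts were more than 1.5-fold lower (1.32%). Without those 5 parts the complex stood at 0.0510.

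The same step gave another value in mice without H2A.L.2. There the complex stood at -0.0342 (SD of the other windows 0.285), 2 of 30 parts were higher (7.46% on the rest of the chromosome) and 1 was lower (6.48%). At 130.7 Mb the numbers were 314 against 246, where WT had 275 against 178. From spermatocytes to round spermatids, the complex stood at 0.28 without H2A.L.2, where 3 parts were higher (0.767%) and 0 lower (0.488%), and at 0.02 in WT, where 0 parts passed 1.5-fold (0% in either direction).

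Condensing nucleosomes were therefore also set directly against spermatocytes, a comparison added after the values were seen. It shares the condensing lists with the one above and adds no independent measurement of them. The complex stood at 0.26 in WT (highest of 48 windows) and 0.25 without H2A.L.2 (second highest). In WT, 8 of 30 parts were higher (1.39%), and in H2A.L.2-less mice 9 of 30 (1.74%). In neither genotype was a part lower (1.6% in WT and 3.07% without H2A.L.2). The part at 130.7 Mb led chromosome 6 in both genotypes, with a ratio of 1.22 in WT (275 against 167) and 1.28 without H2A.L.2 (314 against 171). Over all chromosomes it ranked 92nd of 23988 windows in WT and 64th of 23989 without H2A.L.2. Without the parts from 130.5 to 131.0 Mb the values for the complex were 0.0602 and 0.0531.

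**Figure D2:**
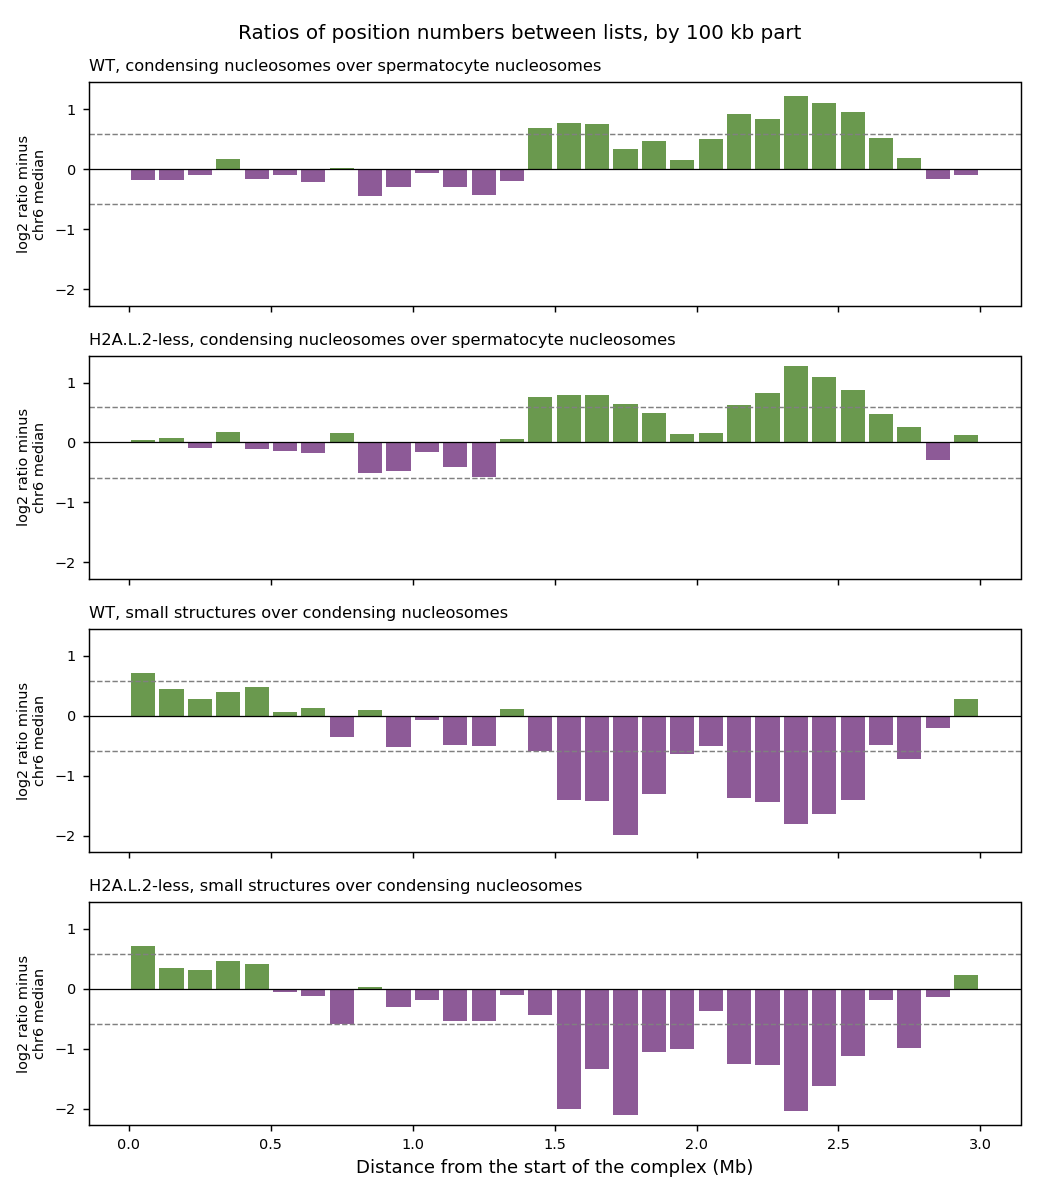
Log2 ratio of position numbers for each 100 kb part (vertical axis, relative to the median of chromosome 6) against distance from the start of the complex in Mb. The upper panels set condensing nucleosomes over spermatocyte nucleosomes, and the lower panels small structures over condensing nucleosomes, for WT and H2A.L.2-less lists. Green bars lie above and purple bars below the chromosome's median, and dashed lines mark 1.5-fold. The WT bars for condensing nucleosomes over spermatocytes reach 1.22 at 130.7 Mb.

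Small structures were few relative to condensing nucleosomes from the same cell fraction. The complex stood at -0.61 in WT and -0.73 without H2A.L.2, the eighth lowest of 48 windows in both (SD of the others 0.427 and 0.483). In WT, 12 of 30 parts were more than 1.5-fold lower (22.5% on the rest of the chromosome) and 1 was higher (16.7%). In H2A.L.2-less mice 11 were lower (22.5%) and 1 was higher (23.8%). The lowest of all windows on chromosome 6 was the part at 130.1 Mb in both genotypes, with 27 small structures against 91 nucleosomes in WT (-1.99) and 17 against 91 without H2A.L.2 (-2.11). Over all chromosomes it was the second lowest of 23991 windows in WT and the lowest of 23982 without H2A.L.2. The part at 130.7 Mb had 93 against 275 in WT (-1.81) and 63 against 314 without H2A.L.2 (-2.03). Only the first part of the complex passed 1.5-fold upwards, with 282 against 144 and 188 against 138.

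The genotypes were compared at each stage. In spermatocytes the complex stood at 0.0300 (SD of the other windows 0.0913), or at -0.0169 with the same number of positions from each list, and 0 of 30 parts passed 1.5-fold (0.139% higher and 0.0697% lower on the rest of the chromosome). The highest parts were 130.4 Mb (0.32) and 130.3 Mb (0.30), and the lowest were 130.1 Mb (-0.33) and the first part (-0.31). In condensing nucleosomes the complex stood at 0.01 (SD 0.0256) with 0 parts past 1.5-fold (0% and 0.0697%). Its highest parts were 130.3 Mb (0.27) and 129.7 Mb (0.24), and its lowest 129.3 Mb (-0.25) and 129.6 Mb (-0.16). Both comparisons placed the whole complex within 1 SD of the chromosome.

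Round spermatids had the widest genotype difference. The complex stood at 0.29, within the spread of the other windows (SD 0.263, 38th of 48 from the lowest). The parts at 130.4 Mb (141 H2A.L.2-less positions against 87 in WT, 0.71) and 130.6 Mb (178 against 118, 0.61) passed 1.5-fold upwards. That is 2 of 30, against 0.976% of windows on the rest of the chromosome. The lowest, the first part and that at 128.7 Mb, both stood at -0.36, and 0 parts passed 1.5-fold downwards (7.53%). Over the other 47 windows, the round spermatid ratio fell with the number of WT small structures (Spearman's rho -0.988 across windows of these libraries, a description). The round spermatid ratio of the complex was thus read beside its low number of small structures, and what links the 2 was not tested.

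In small structures the complex stood at -0.10 (SD 0.0807), and 0 of 29 parts with enough positions passed 1.5-fold (0% both ways). The WT calling floor, taken as the first percentile of summit values, was 272, against 96 without H2A.L.2. When the same number of positions was taken from each list, the value turned to 0.15, so no direction is given for small structures. The highest parts were 130.2 Mb (0.40, with 29 positions against 30) and 130.9 Mb (0.19), and the lowest were 129.9 Mb (-0.49) and 129.4 Mb (-0.26).

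**Figure D3:**
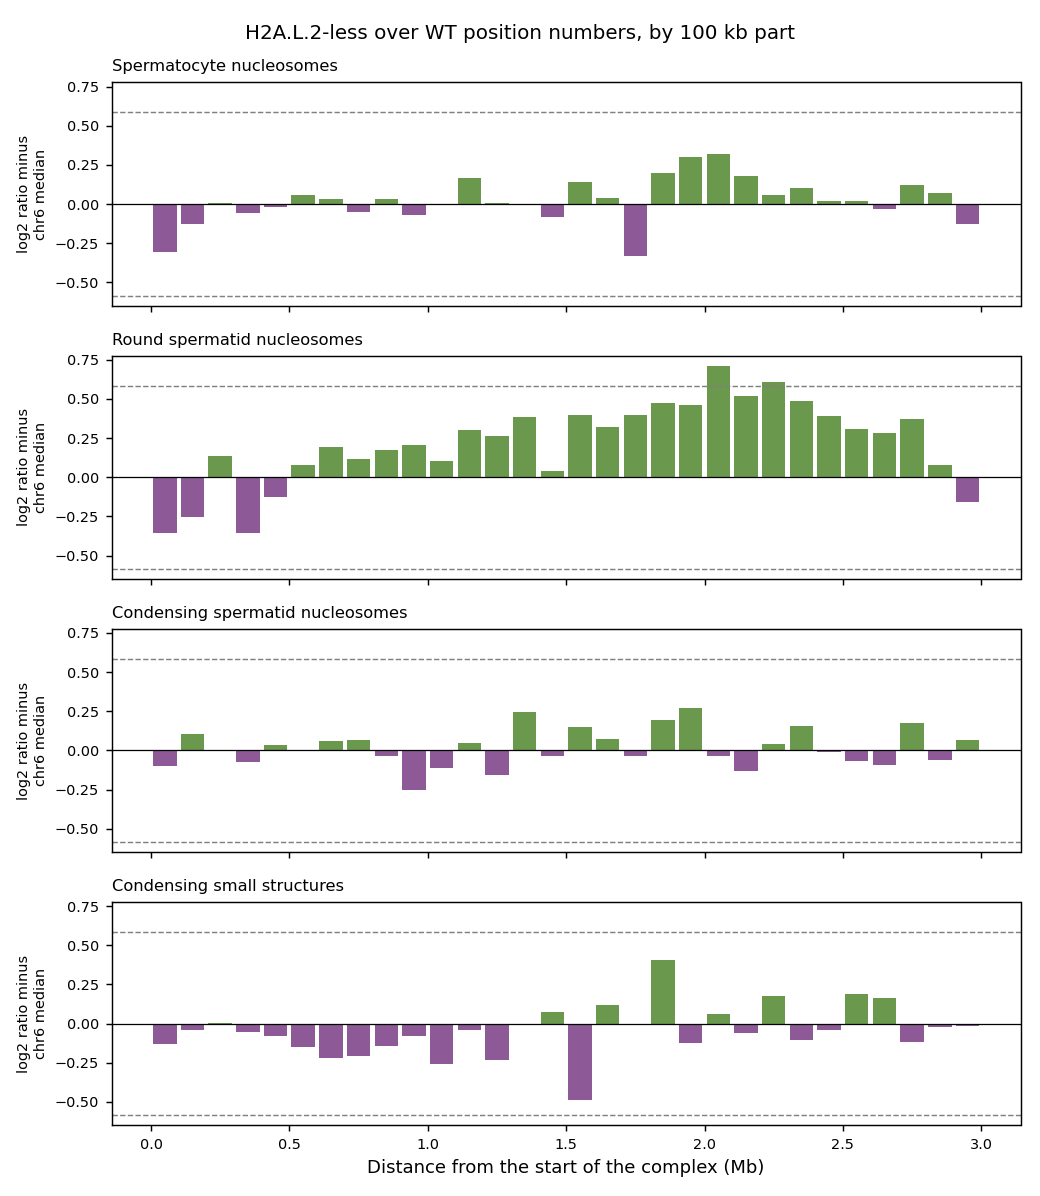
Log2 ratio of H2A.L.2-less to WT position numbers for each 100 kb part (vertical axis, relative to the median of chromosome 6) against distance from the start of the complex in Mb, for the 3 nucleosome stages and small structures. Dashed lines mark 1.5-fold, and a part with fewer than 50 positions in both lists together has no bar. In round spermatids the bar at 130.4 Mb reaches 0.71.

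Summit height was read as a level, the median summit value divided by the median of the whole list, because summit values have no common scale between libraries. In the complex the level was 1.02 for WT and 1.0 for H2A.L.2-less spermatocytes. Round spermatids gave 1.03 (WT) and 1.04 (H2A.L.2-less), and condensing nucleosomes gave 1.04 and 1.06. In H2A.L.2-less round spermatids and condensing nucleosomes it was the highest of 48 windows, where the highest other window stood at 1.02 and 1.04. These margins are small, because summit values come in whole multiples of 4 and the medians of these lists were 204 and 192. The rest of chromosome 6 stood between 1.0 and 1.02 in the nucleosome lists. Small structures were lower, at 0.828 in WT and 0.850 without H2A.L.2, where the rest stood at 0.975 and 0.95, a difference within 1 SD of the other windows (0.149 and 0.120). Between genotypes, the log2 ratio of level relative to the rest of the chromosome was -0.0247 for spermatocytes, -0.0198 for round spermatids, 0.0309 for condensing nucleosomes and 0.0761 for small structures. With the same number of positions from each list it was 0.0238, 0.0106, 0.0589 and -0.0265. No direction is given for spermatocytes, round spermatids or small structures, where the sign changed. The ratio for condensing nucleosomes kept its sign, but 0.0309 ranked only 39th of 48 windows from the lowest (SD of the other windows 0.0209). With summit values this coarse, that sign carries little weight.

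The highest levels in the nucleosome lists lay in the parts from 130.5 to 131.0 Mb. The part at 130.7 Mb had a level of 1.38 in WT spermatocytes, 1.14 in H2A.L.2-less spermatocytes, 1.49 in WT round spermatids and 1.22 in H2A.L.2-less round spermatids. In condensing nucleosomes it had 1.24 in WT and 1.29 without H2A.L.2, and in small structures 0.902 and 0.900. This part was the highest in 3 lists, all of them WT nucleosome lists. A level of at least 1.2, a limit set after the values were seen, was reached by 3 parts of WT spermatocytes and 0 of H2A.L.2-less spermatocytes (0.209% of windows on the rest of the chromosome in both). It was reached by 5 parts of WT round spermatids and 3 of H2A.L.2-less ones (0.209% in both). Condensing nucleosomes had 5 such parts in WT (0.279%) and 7 without H2A.L.2 (0.209%), and small structures had 0 in each genotype (9.41% in WT and 6.35% without H2A.L.2).

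**Figure D4:**
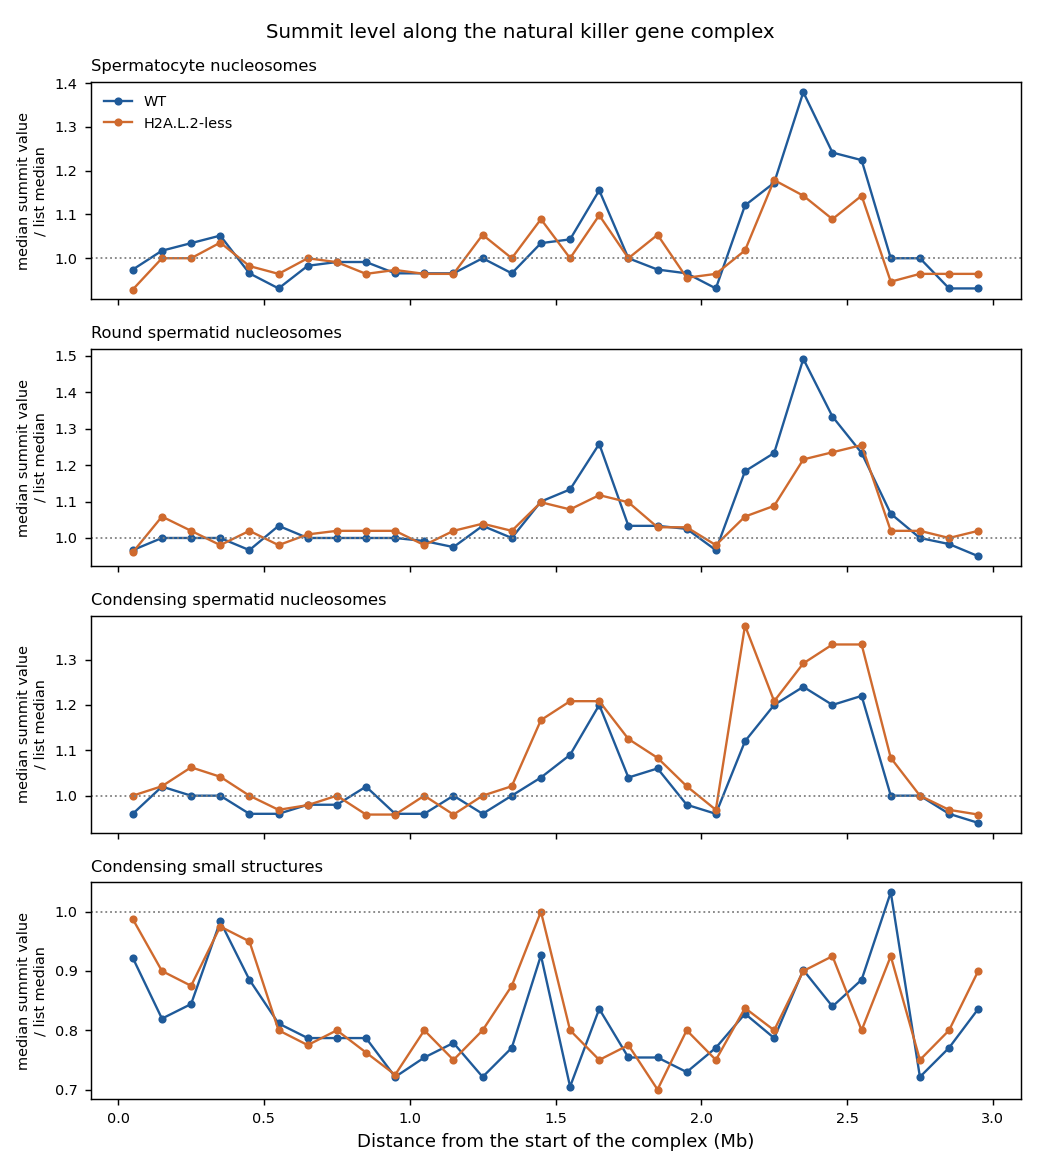
Level of each 100 kb part (median summit value over the median of the whole list, vertical axis) against distance from the start of the complex in Mb, WT and H2A.L.2-less as separate lines. Nucleosome lists stay near 1 over the first 14 parts, rise in some parts after them (to 1.49 in WT round spermatids) and are back near 1 around 2 Mb and in the last 4 parts, while small structures stay between 0.70 and 1.03.

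High summits, those at or above 2 times the list's median, were more frequent in the complex than on the rest of chromosome 6 in the 6 nucleosome lists. They made up 4.69% of WT spermatocyte positions in the complex (95% Wilson interval 4.13 to 5.33) and 0.798% on the rest of chromosome 6. In H2A.L.2-less spermatocytes the share was 1.64% (1.31 to 2.05), against 0.729%. In round spermatids it was 6.0% (5.37 to 6.69) in WT and 2.1% (1.75 to 2.51) without H2A.L.2, against 1.03% and 0.577%. Condensing nucleosomes had the opposite order, 2.26% (1.84 to 2.76) in WT and 5.48% (4.83 to 6.21) without H2A.L.2, against 0.583% and 0.577%. These intervals cover counting error only, and sequencing depth and digestion of single libraries, which also move the share, cannot be told apart from genotype. Small structures had 2.33% and 4.41%, below the 5.18% and 8.14% on the rest of the chromosome.

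Most high summits of the nucleosome lists lay from 129.8 to 131.0 Mb, 12 of the 30 parts. Both this stretch and the limit for high summits were set after the values were seen, so their concentration is a description only. The share there was 85.8% of 225 for WT and 70.7% of 75 for H2A.L.2-less spermatocytes. It was 85.6% of 299 for WT and 78.6% of 117 for H2A.L.2-less round spermatids, and 85.9% of 92 and 90.9% of 231 for condensing nucleosomes. Of the high small structures, only 47.1% of 85 (WT) and 33.6% of 113 (H2A.L.2-less) lay there. Within that stretch, the share of high summits among spermatocyte positions was 12.6% (WT) and 3.48% (H2A.L.2-less), and among round spermatid positions 15.3% and 4.23%. In condensing nucleosomes it was 4.12% in WT and 10.4% without H2A.L.2. Of 3 Mb windows on chromosome 6, the complex had the highest share in WT spermatocytes, WT round spermatids and H2A.L.2-less condensing nucleosomes, as the plot of 3 Mb windows shows.

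**Figure D5:**
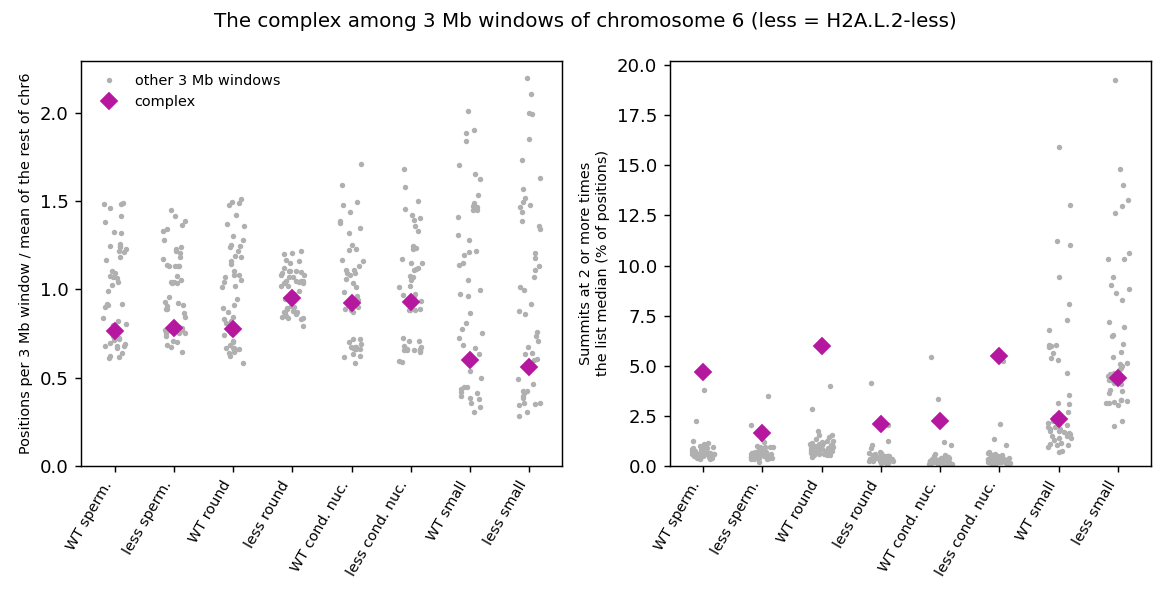
Each list's 3 Mb windows of chromosome 6: the left panel gives position density over the rest of the chromosome, and the right panel the percent of summits at or above 2 times the list median. Grey points are the 47 other windows and diamonds the complex ("less" stands for H2A.L.2-less). The diamond lies within the points for density, and above all of them for high summits in WT spermatocytes (4.69%), WT round spermatids (6.0%) and H2A.L.2-less condensing nucleosomes (5.48%).

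Many high summits recurred at the same place, counted when summits lay within 40 bp. Of the 225 in WT spermatocytes, 58.7% had a high summit in WT round spermatids, and 44.1% of the 299 in round spermatids had one in spermatocytes. Any summit of H2A.L.2-less spermatocytes was found at 87.1% of the 225 WT places, and a high one at 21.3%. Taken the other way, of the 75 high summits of H2A.L.2-less spermatocytes 88% had any WT spermatocyte summit and 64% a high one. The 48 places high in both genotypes were thus a smaller share of the longer WT set.

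Some single summits stood far above the list median. The highest summit in any list was that of WT small structures at 129883141, in the part at 129.8 Mb, with a value of 13052, or 26.7 times the list median. The H2A.L.2-less small structures had one 10 bp away at 16.3 times the median. The highest nucleosome summits within 100 bp stood at 5.47 (WT) and 6.09 (H2A.L.2-less) times the median in spermatocytes, both 90 bp away. In round spermatids and condensing nucleosomes they stood at 1.62 to 4.02 times. In nucleosomes, a summit between 129098421 and 129098441 stood at 10.7 (WT) and 10.3 (H2A.L.2-less) times the median of spermatocytes. It stood at 8.20 and 5.02 in round spermatids, and at 4.48 and 5.48 in condensing nucleosomes.

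Fuzziness scores of the complex were below those of the rest of chromosome 6 in all 8 lists. Fuzziness is the authors' score of how widely fragments scatter about a summit. Its median was 52.3 for WT and 52.6 for H2A.L.2-less spermatocytes, -0.901 and -0.396 relative to the median of the rest of the chromosome. Round spermatids differed by -0.827 and -0.214 and condensing nucleosomes by -0.0813 and -0.106. Small structures differed most, by -1.95 in WT and -2.44 without H2A.L.2, with an SD over other windows of 1.27 and 1.60. The difference exceeded 1 SD of the other windows in WT spermatocytes and WT round spermatids (SD 0.744 and 0.704) and in both small-structure lists. Measured from the mean of the other windows (52.98 in WT spermatocytes and 52.93 in WT round spermatids), the complex lay within 1 SD in both. From the lowest of 48 windows, the complex ranked 12th in WT spermatocytes and 11th in WT round spermatids. In small structures it ranked 8th (WT) and 12th (H2A.L.2-less). The difference stayed within 1 SD in the other 4 lists. In 3 of those lists it turned positive among summits at or above the list median. It was then 0.0707 in H2A.L.2-less round spermatids, and 0.195 (WT) and 0.235 (H2A.L.2-less) in condensing nucleosomes. No direction is given for these 3.

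Regularity compares pairs of summits 330 to 450 bp apart with pairs 230 to 330 bp apart, as the highest over the lowest pair count. It was 1.52 in WT spermatocytes, the second lowest of 48 windows (mean of the others 1.74), and 1.89 without H2A.L.2 (mean 1.91). With the same number of positions from each list, the WT value was 1.70. That value cannot be set against the mean of the other windows, which is of the full lists. WT and H2A.L.2-less round spermatids had 1.63 and 2.05 (means 1.84 and 2.23), and condensing nucleosomes 1.22 and 1.09 (mean 1.12 in both).

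Positions were next matched between lists, a position being shared when another summit lay within 40 bp of it in the second list, with chance taken from lists moved by 5000 bp. WT spermatocyte positions of the complex were found without H2A.L.2 in 52.4% of cases (chance 13.7%), against 52.0% on the rest of chromosome 6. In round spermatids the share was 51.0% (chance 17.4%) against 44.2%, and in condensing nucleosomes 38.7% (chance 16.2%) against 29.9%. Both of these were the highest of 48 windows, although relative to chance they ranked 35th and 36th from the lowest. Small structures matched in 50.8% (chance 10.5%), against 56.7% (chance 20.8%) on the rest of the chromosome. Relative to chance, the complex stood at 3.82 (spermatocytes), 2.94 (round spermatids), 2.38 (condensing nucleosomes) and 4.84 times (small structures). The rest of the chromosome stood at 2.70, 2.40, 1.90 and 2.73 times. On this measure spermatocytes ranked 36th and small structures 34th of 48 windows from the lowest.

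Matched shares were higher in the parts from 130.5 to 131.0 Mb, where condensing nucleosomes were dense and chance was higher too. There 69.1% of WT round spermatid positions (chance 21%) and 54.7% of WT condensing nucleosomes (chance 23.9%) had an H2A.L.2-less counterpart. Of WT round spermatid positions there, 48.0% (chance 22.2%) had a condensing nucleosome, against 27.2% (chance 13.6%) over the complex and 23.7% on the rest of the chromosome. Relative to chance these 3 shares were 3.29, 2.29 and 2.16 times, against 2.94, 2.38 and 2.00 times over the complex. The sparse parts from 130.1 to 130.5 Mb stood higher, at 3.84, 4.73 and 3.29 times, so the shares are not read as closer agreement in the dense parts. WT small structures of the complex lay at WT round spermatid positions in 44.4% of cases (chance 17.8%), and at condensing nucleosomes in 22.4% (chance 14.4%). Without H2A.L.2 those shares were 29.2% (chance 19.5%) and 21.8% (chance 13.6%). The share at round spermatid positions was also lower without H2A.L.2 on the rest of chromosome 6, at 24.9% against 42.9% in WT. The 29.2% was the highest of 48 windows, although relative to chance it ranked 35th from the lowest. The lower share without H2A.L.2 was thus not particular to the complex.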

How the data were processed

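Positions of MNase-protected fragments were analysed in 8 libraries, and the sample titles gave each one's genotype, stage and fragment class. The submitters' processing notes name Bowtie2 2.2.9, deepTools 2.2.4 and mm9. Reads per sample ranged from 207000000 to 753000000 over 3 merged runs, as the series description states. The position caller's version and thresholds and the treatment of multiply placed reads are not given in the sources used here. Columns for the summit, its value and a fuzziness score are present for each position, per the file headers. The fuzziness score was used as deposited. Summit values, as deposited, are a coverage signal in whole multiples of 4, with no visible scaling to depth.

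Positions were counted per 100 kb part and per 3 Mb window of chromosome 6. Ratios needed at least 50 positions in both lists together. The complex and the lists of genes were chosen with earlier results of these data known. Groups of parts, the level limit of 1.2 and the limit for high summits were set after the values were seen. The parts named for their numbers are the 3 with most and the 3 with fewest positions in WT spermatocytes, the 2 highest and 2 lowest per genotype pair, the part with the highest summit and any with under 50 positions in every list. Further parts were named after their values were seen. Alternatives were equal numbers of positions (the 3779744 highest of each list), parts of 50 and 200 kb, bounds moved by 200 kb, matching within 20 or 73 bp, means without the highest 0.1%, summits at or above the list median, density in 10 kb windows, and reference to chromosomes 1 to 19 or the 3 Mb on either side. Analyses used Python 3.11.15, numpy 2.4.6, scipy 1.17.1 and matplotlib 3.10.9, and the code was tested on simulated data.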

Additional observations from a re-analysis of the deposited data

Results flagged for a closer look

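The change in position number from round spermatids to condensing nucleosomes, as the complex against the rest of chromosome 6, was 0.25 in WT and -0.0342 without H2A.L.2 on the log2 scale. The signs are opposite in the 2 genotypes, with 1 library on each side of each ratio. The WT value was the highest of 48 windows (SD of the others 0.133). The H2A.L.2-less value lay well within the spread of the other windows (SD 0.285, 26th of 48 from the lowest), so its sign carries little weight. Between genotypes, the complex stood at 0.01 in condensing nucleosomes and at 0.29 in round spermatids. The difference between the genotypes was not tested.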

How the results depend on the processing

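Of 182 values recomputed with another setting, 154 moved by no more than the spread of the other windows (or 1.5 times for counts), but 4 of these 154 changed sign. Another 24 moved further without a sign change, and 4 moved further and changed sign. The small sign changes were the fuzziness difference among summits at or above the list median (0.0707 in H2A.L.2-less round spermatids, 0.195 and 0.235 in WT and H2A.L.2-less condensing nucleosomes) and the spermatocyte genotype ratio with equal numbers (-0.0169). No paired analysis was possible because each group has 1 library. Without the highest 0.1% of positions, the mean-based level of the complex (WT, then H2A.L.2-less) was 1.07 and 1.02 for spermatocytes, 1.09 and 1.06 for round spermatids, 1.07 and 1.11 for condensing nucleosomes. On that measure the log2 genotype ratio of level was -0.0697 in spermatocytes and 0.0579 in condensing nucleosomes. With bounds moved in by 200 kb, the level was 1.05 for WT and 1.06 for H2A.L.2-less round spermatids, and 1.08 in H2A.L.2-less condensing nucleosomes. With equal numbers of positions, the level of H2A.L.2-less spermatocytes was 1.02. Regularity was then 1.70 in WT spermatocytes, 1.78 and 2.35 in WT and H2A.L.2-less round spermatids, and 1.28 in WT small structures. Equal numbers also turned the genotype ratio of level to 0.0238 in spermatocytes, 0.0106 in round spermatids and -0.0265 in small structures, and moved it to 0.0589 in condensing nucleosomes. The genotype ratio of small-structure numbers turned to 0.15. The count of parts past 1.5-fold in round spermatids was 1 with 200 kb parts and 1 with equal numbers. With 50 kb parts it was 1 in condensing nucleosomes and 1 in small structures. In an alternative chosen after seeing the data, without parts 22 to 26 (from 130.5 to 131.0 Mb), condensing over round was 0.0510 in WT, and condensing over spermatocyte was 0.0602 in WT and 0.0531 without H2A.L.2. The cause of these changes was not tested, except that the last follows from the parts left out. Weak positions below each list's calling floor are missing, and reads per library are unknown, which limits all comparisons of position numbers.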

Other observations

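Empty stretches were few in the complex. Their share was nonetheless above that of the rest of chromosome 6 in every list except H2A.L.2-less round spermatids. Of 300 windows of 10 kb, the spermatocyte lists left 3 (WT) and 1 (H2A.L.2-less) empty, round spermatids 4 and 0, condensing nucleosomes 4 and 7, and small structures 10 and 15. On the rest of chromosome 6 the empty share was 0.195% and 0.174% for spermatocytes, 0.174% and 0.167% for round spermatids, 0.383% and 0.313% for condensing nucleosomes, and 1.40% and 1.97% for small structures. Of the complex it was 1% and 0.333%, 1.33% and 0%, 1.33% and 2.33%, and 3.33% and 5%, in the same order. Such small counts give no firm difference, least of all the single window of H2A.L.2-less spermatocytes. The longest gap of a single list was 36840 bp, in H2A.L.2-less small structures, from 129584291 to 129621131. No window of 10 kb was empty in all 8 lists together, where the rest of chromosome 6 had 24 of 14360. The longest stretch with no position in any list was 7670 bp, from 130575681 to 130583351. The longest gaps of WT spermatocytes (20350 bp), WT round spermatids (23010 bp) and WT condensing nucleosomes (21990 bp) overlapped one another between 130390671 and 130410321. That of H2A.L.2-less round spermatids (13640 bp, from 130394281 to 130407921) lay within the same stretch. Those of H2A.L.2-less spermatocytes and condensing nucleosomes lay elsewhere.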
